A study of Mus musculus with 6 samples.

Results

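This account covers 37 mouse genes of Golgi structure and vesicle coats, in cells with AC9 overexpression against cells with the empty vector. They were selected by name from a list, as Golgi scaffold and tether proteins, Golgi SNAREs, the Arf cycle, and the COPI and COPII coats. The list was chosen with earlier results of these data known. Of the 37 listed symbols, 36 had a probe set among the 19505 genes measured, and Stx5a was not analysed here. A symbol with more than 1 probe set was represented by the brightest, judged by its average across the 6 arrays.

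The Golgi apparatus receives newly made proteins from the endoplasmic reticulum, trims their sugars and sorts them onward. COPII coats, built by the small GTPase Sar1 with Sec23, Sec24, Sec13 and Sec31 proteins, bud vesicles from the endoplasmic reticulum. COPI coats, recruited by Arf GTPases, carry material back and between Golgi cisternae, while golgins, GRASP proteins and SNAREs tether, stack and fuse the membranes. Secretory output and the shape of the Golgi ribbon are of interest in lung adenocarcinoma cells because they bear on what tumour cells release.

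The cells were 393P cells, written 9393P in some labels, a line from a mouse lung adenocarcinoma. The 3 AC9 samples carried AC9 as a stable transfection and the 3 VECTOR samples carried the empty vector. All were grown in RPMI with fetal bovine serum, and stable cells were selected with puromycin or G418. The sources used here do not give the drug of each group, the promoter that drove AC9, or whether replicates were separate cultures or clones. Drug, clone and AC9 therefore cannot be told apart. One Affymetrix Clariom S array was hybridised per sample, and all values below are RMA log2 intensities unless stated. Levels of different probe sets are not on a common scale, so only changes are compared between genes.

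Array medians ran from 6.42 to 6.44 in AC9 and from 6.45 to 6.46 in VECTOR. Within a group, pairs of arrays correlated at 0.994 to 0.996 over the genes, and pairs from different groups at 0.985 to 0.988. Adcy9, adenylyl cyclase 9, which the reference gene table links to the name AC9, read 6.78, 6.60 and 6.82 in AC9, against 6.12, 6.09 and 6.15 in VECTOR. Every AC9 array was higher, by 0.61 on the log2 scale (SE 0.10, limma adjusted p 0.00264). That is 1.53-fold, rank 1199 of 19505 genes by the size of change. The VECTOR readings lay close to 6.06, the negative-control bound given next, so the size of the rise is uncertain. Of 10 epithelial markers, all 10 lay above the 90th percentile of the negative controls (a bound of 6.06) in at least 1 group, with Cdh1 at 12.61 in AC9 and 12.84 in VECTOR. Of these, 2 lay below the bound in the other group. All 7 measured mesenchymal markers also lay above it in at least 1 group, with Vim at 13.42 in AC9 and 13.49 in VECTOR. All 6 leukocyte markers lay below that bound in both groups, as did 6 of 7 fibroblast and endothelial markers. At a limma adjusted p of 0.05, 4 of 10 epithelial markers (40%) passed. Ocln, Cldn4 and Epcam rose by 0.70, 0.50 and 0.44, and Krt19 changed by -0.47. Over the 10 epithelial markers, 5 changes were positive and 5 negative. Of 7 mesenchymal markers 2 (28.6%) passed, Zeb1 rising by 1.14 and Fn1 by 0.37. Among the 7, 5 changes were positive and 2 negative, Cdh2 at -0.18 and Vim at -0.06. Over all genes 17.6% passed, and 28.7% of genes above the bound in at least 1 group. The mean level of the epithelial list was 9.32 to 9.36 in AC9 and 9.19 to 9.26 in VECTOR, and the mesenchymal list 9.92 to 10.00 in AC9 and 9.63 to 9.78 in VECTOR. Their part in the results below was not tested. Of 8 lung alveolar markers, 2 lay above it in at least 1 group, and Nkx2-1 and Sftpc did not.

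Most Golgi and COP genes showed little difference between the groups. With limma and Benjamini-Hochberg adjustment over all 19505 genes, 6 of 36 members (16.7%) passed an adjusted p of 0.05, 1 higher in AC9 and 5 lower. Over all genes 17.6% passed, 8.26% higher and 9.29% lower, so the share of members called was close to that of the array. All 36 members lay above the negative-control bound in both groups, whereas 8646 genes lay below it in both. Among the 10859 genes above the bound in at least 1 group, 28.7% passed, a larger share than among the members. The median log2 change was 0.06 over the members and 0.02 over all genes, and no member changed as much as 2-fold. Transcript per cell and the make-up of the selected population cannot be told apart in these bulk samples.

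**Figure D1:**
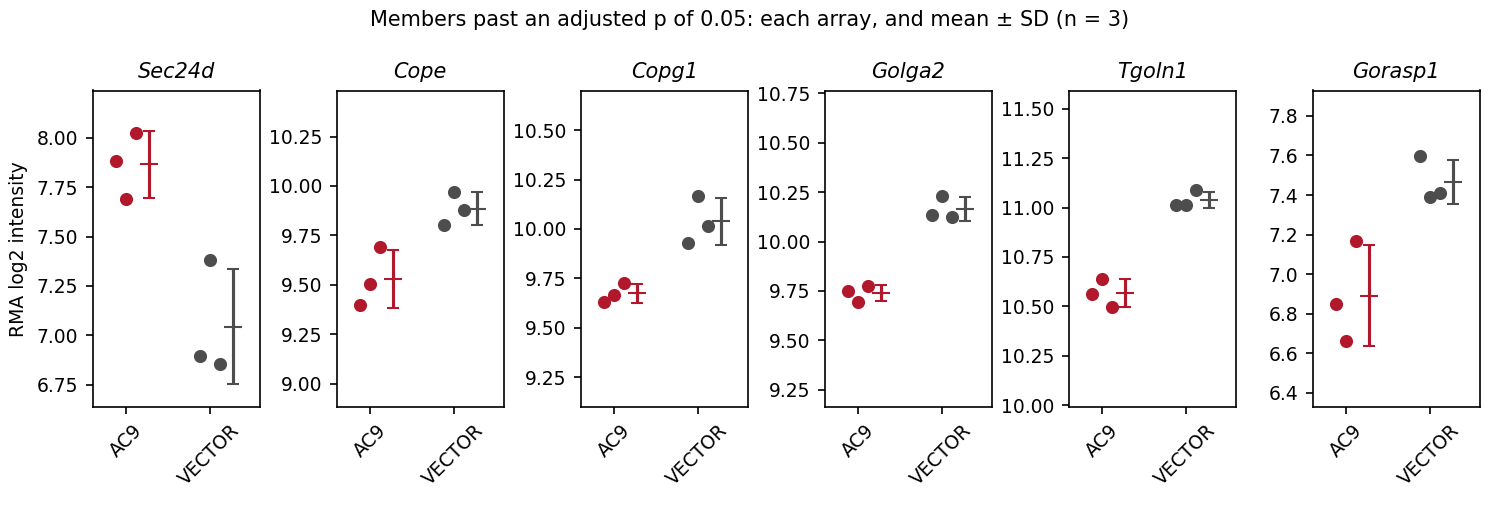
RMA log2 intensity on each array (points) with mean ± SD (bars, n = 3) for the 6 members past an adjusted p of 0.05, AC9 in red and VECTOR in grey; each panel spans the same range of log2 units. Sec24d is higher on every AC9 array, and Cope, Copg1, Golga2, Tgoln1 and Gorasp1 are lower on every AC9 array, without overlap.

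The upstream sequences of these genes were searched for control motifs, because AC9 is an enzyme of cAMP synthesis and coat genes are known targets of endoplasmic reticulum and Golgi stress responses. Windows from 250 bases before to 50 after an annotated start were taken from RefSeq (GRCm38.p6), and 33 of 36 members had at least 1 window. Both strands were searched for TGACGTCA, the cAMP response element, for TGACGTGG, the core of an unfolded protein response element, and for ACGTGGC, a Golgi stress response element. The last motif shares 6 bases with the second, so a stretch of TGACGTGG followed by C holds both.

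TGACGTCA stood in the windows of 3 of 33 members (9.09%), namely Cope, Golph3 and Gosr2, against 2.63% of 15691 genes with a window. TGACGTGG stood in 6 members (18.2%), namely Arf1, Copb1, Copb2, Gbf1, Sec23a and Sec24d, against 0.879% of genes. ACGTGGC stood in 9 members (27.3%), namely Arf1, Copg1, Sar1a, Sec13, Sec23a, Sec24c, Sec24d, Sec31a and Uso1, against 3.55% of genes. Of the 15691 genes, 8860 lay above the negative-control bound in at least 1 group, whereas all members lay above it. The shares were not taken over those 8860 genes alone, nor matched for CG content, and each motif holds CG. A match is a description of these letters and does not show a binding site. Stretches of 30 bases wholly before an annotated start (for Arf1, the upstream stretch of 1 start that lies after another) are printed 5′ to 3′ on the gene's strand, motif letters in capitals. They are shown as examples of genes that hold these letters.
Sec24d, chr3:123267459-123267488, plus strand: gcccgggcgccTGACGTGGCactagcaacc
Arf1, chr11:59228228-59228257, minus strand: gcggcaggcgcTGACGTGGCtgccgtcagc
Sec24c, chr14:20674235-20674264, plus strand: gcctaaggccgACGTGGCagaaggagtggc
Uso1, chr5:92137870-92137899, plus strand: cccttcgagccGCCACGTaacGCCACGTcc
Sar1a, chr10:61680116-61680145, plus strand: tgacagacgctGCCACGTcttaccccgctt
Copb1, chr7:114254690-114254719, minus strand: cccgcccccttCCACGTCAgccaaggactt
Golph3, chr15:12321422-12321451, plus strand: acatcctccggTGACGTCAgcgcgcgccgc
Gosr2, chr11:103697929-103697958, minus strand: gggggaggctcTGACGTCAgtgcctcgcga

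Cope was the only member past the threshold with TGACGTCA in its window. The 250 bases before its start show the element in capitals, far upstream of the start.
Cope, chr8:70302517-70302766, plus strand: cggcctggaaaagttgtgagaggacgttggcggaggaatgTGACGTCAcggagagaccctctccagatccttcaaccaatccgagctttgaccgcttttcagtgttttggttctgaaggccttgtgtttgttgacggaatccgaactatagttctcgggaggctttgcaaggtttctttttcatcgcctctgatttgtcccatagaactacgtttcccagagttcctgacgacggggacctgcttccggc

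Among the carriers of each motif some changes were positive and some negative, and most were short of the threshold. Whether the motifs bear on the changes was not tested. Among the 9 members with ACGTGGC, Sec24d had a log2 change of 0.82, Uso1 0.22 and Sec23a 0.08. Sar1a had -0.04, Sec13 -0.05, Sec31a -0.07, Arf1 -0.20, Sec24c -0.26 and Copg1 -0.36, and of these 9 genes Sec24d and Copg1 passed the threshold. Among the 6 members with TGACGTGG, the changes were 0.82 for Sec24d, 0.28 for Gbf1, 0.14 for Copb1, 0.08 for Sec23a, -0.01 for Copb2 and -0.20 for Arf1. Of these 6 only Sec24d passed the threshold. Sec24d, Sec23a and Arf1 all hold the letters TGACGTGGC, with changes of 0.82, 0.08 and -0.20, those of Sec23a and Arf1 short of the threshold. Among the 3 members with TGACGTCA, Golph3 had 0.29, Gosr2 0.03 and Cope -0.36.

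In the COPII coat, Sec24d rose, while the other 9 members did not pass the threshold. Sec24d encodes 1 of the 4 Sec24 paralogs that select cargo into COPII vesicles. Its probe set (TC0300001255.mm.2) read 7.88, 7.69 and 8.02 in AC9, against 6.89, 7.38 and 6.86 in VECTOR. Every AC9 array was above every VECTOR array, and VECTOR replicate 2 was the highest of its group. The log2 change was 0.82 (SE 0.15, adjusted p 0.00594), or 1.77-fold, and Sec24d ranked 568 of 19505 genes by the size of its change. It passed with each array left out in turn, at log2 changes of 0.73 to 0.99.

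The other Sec24 genes had smaller changes than Sec24d, and that of Sec24c had the opposite sign. Sec24c, a paralog closest in kind to Sec24d, read 8.02, 8.08 and 7.97 in AC9, against 8.20, 8.41 and 8.25 in VECTOR (log2 change -0.26, SE 0.10, adjusted p 0.0952). All AC9 arrays were lower, but the change missed the threshold, which it passed with dim genes left out of the fit (adjusted p 0.0397). Sec24a read 9.76, 9.70 and 9.77 in AC9, against 9.47, 9.40 and 9.66 in VECTOR (log2 change 0.23, SE 0.10, adjusted p 0.144). Here the AC9 arrays were higher without overlap, again short of the threshold. Sec24b had a log2 change of 0.13 (adjusted p 0.446) with overlapping groups.

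Differences between paralogs were tested directly on the within-array difference of their log2 values, with a two-sided exact permutation test over the arrays and adjustment over 10 pairs. With 3 arrays against 3 the exact permutation test cannot go below p = 0.1, which was 0.125 after adjustment, so no pair could pass. The change of Sec24d exceeded that of Sec24c by 1.09 (SE 0.17), that of Sec24b by 0.69 (SE 0.20) and that of Sec24a by 0.59 (SE 0.24). In each of these 3 pairs the groups did not overlap and p was at its smallest value. The same held for the other pairs of the 10, except Sec23a with Sec23b and Sec24a with Sec24b. This outcome therefore does not set the Sec24d pairs apart. The change of Sec24c was also below that of Sec24a and of Sec24b without overlap, Sec24a exceeding it by 0.50 and Sec24b by 0.40. Sec24a and Sec24b differed by 0.10 (SE 0.10, exact permutation p 0.5).

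The rest of the COPII machinery moved little. Sec23a and Sec23b, the paralogs that stimulate GTP hydrolysis by Sar1, had log2 changes of 0.08 and 0.11, and the difference between these changes was -0.03 (exact permutation p 0.8). Sar1a and Sar1b, the GTPases that start coat assembly, had changes of -0.04 and 0.10. The outer coat genes Sec13 and Sec31a had -0.05 and -0.07. Sec24a and Sar1b are neighbours on chromosome 11, at 51692263 to 51757161 and 51763663 to 51791953 in GRCm38.p6, with 6501 bases between them.

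Among the members of the COPI coat and the p24 cargo receptors, 2 of 7 genes (28.6%) fell and none rose, with 5 short of the threshold. Among genes above the negative-control bound 28.7% passed in either direction, so this share was like theirs. Copg1, a gamma subunit that binds cargo and Arf GTPases, read 9.63, 9.67 and 9.73 in AC9, against 9.93, 10.17 and 10.02 in VECTOR. Cope, the epsilon subunit, read 9.40, 9.50 and 9.69 in AC9, against 9.80, 9.97 and 9.88 in VECTOR. In both genes every AC9 array was below every VECTOR array. The log2 changes were -0.36 (SE 0.10, adjusted p 0.0309) for Copg1 and -0.36 (SE 0.11, adjusted p 0.0472) for Cope.

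Each COPI call was lost in 5 of the 6 fits that leave out 1 array. Copg1 did not pass without AC9 replicate 1, 2 or 3 (adjusted p 0.104, 0.0839 and 0.0649) or without VECTOR replicate 2 or 3 (0.0919 and 0.0592). Cope did not pass without AC9 replicate 1 or 2 (0.164 and 0.122) or without VECTOR replicate 1, 2 or 3 (0.0683, 0.128 and 0.0920). Cope also missed the threshold with arrays centred on their medians (0.0617), with array weights (0.0540) and with the replicate number as a block (0.0586). The alpha subunit Copa, the beta subunits Copb1 and Copb2, and the p24 cargo receptors Tmed2 and Tmed10 had log2 changes from -0.01 to 0.14, with overlapping groups in each.

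**Figure D2:**
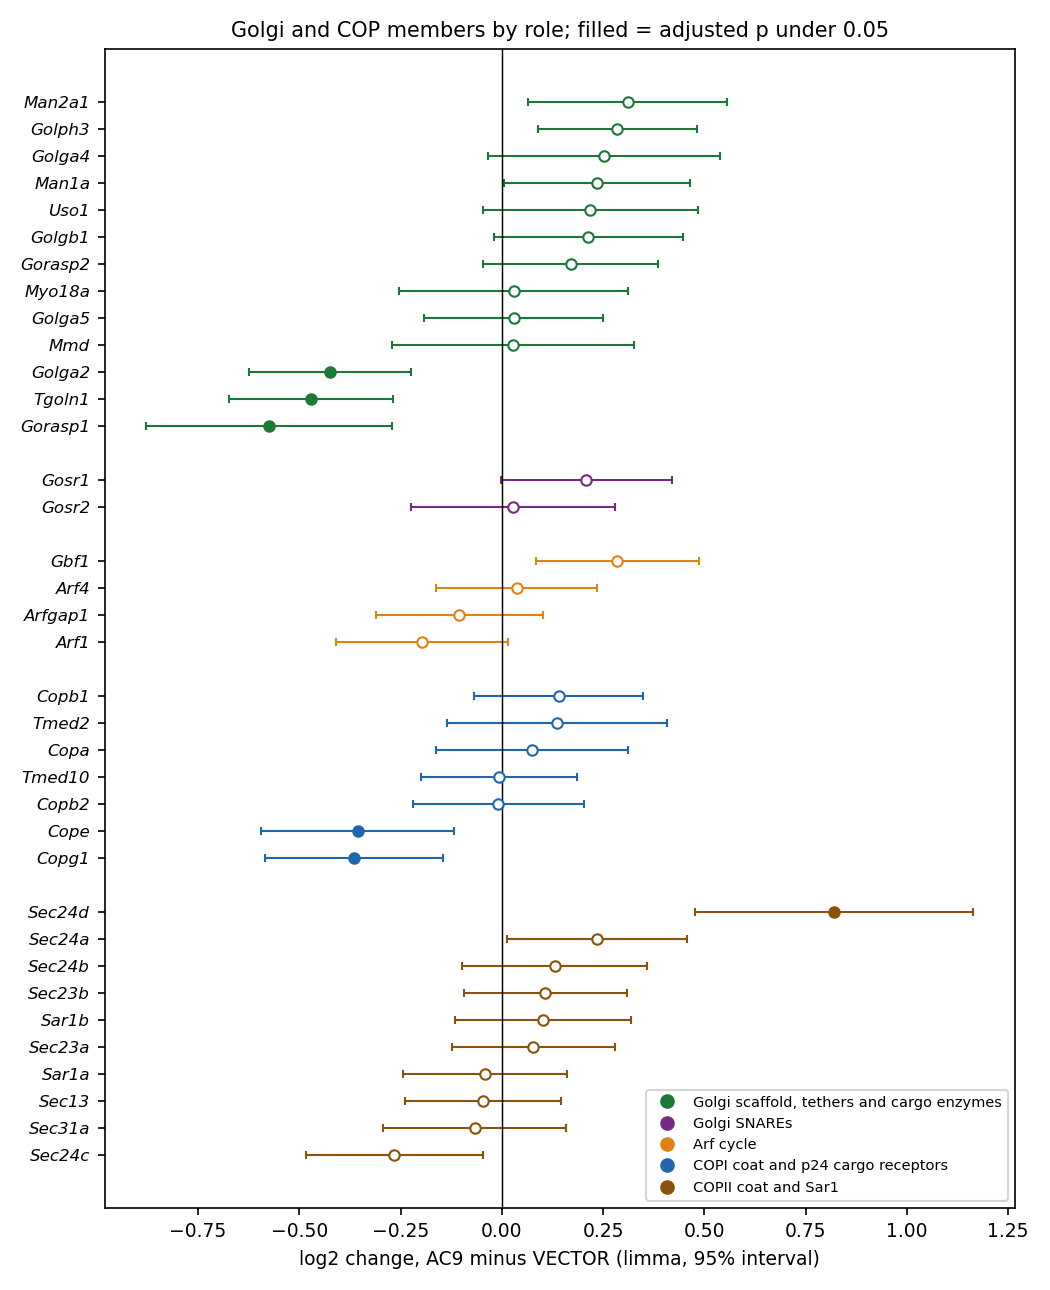
Log2 change, AC9 minus VECTOR, with its 95% interval from limma for the 36 members, grouped and coloured by role; filled points passed an adjusted p of 0.05. Sec24d at 0.82 stands above the other members, and the 5 filled points to the left lie between -0.57 and -0.36.

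Among Golgi scaffold, tether and resident proteins, 3 of 13 genes (23.1%) fell, none rose, and 10 did not pass. Among genes above the negative-control bound 28.7% passed in either direction. The 3 members that fell were Golga2, Gorasp1 and Tgoln1. Golga2 encodes GM130, a cis-Golgi golgin that docks vesicles through the tether p115. It read 9.75, 9.70 and 9.77 in AC9, against 10.13, 10.23 and 10.13 in VECTOR. The groups were well separated, with a log2 change of -0.42 (SE 0.09, adjusted p 0.0104).

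Gorasp1 encodes GRASP65, the stacking protein that partners GM130. It read 6.85, 6.66 and 7.17 in AC9, against 7.60, 7.39 and 7.41 in VECTOR. All AC9 arrays were lower, with a wider spread in AC9 (SD 0.25) than in VECTOR (SD 0.11). The log2 change was -0.57 (SE 0.14, adjusted p 0.0174), the largest fall among the members. It missed the threshold without AC9 replicate 1 (0.0625), AC9 replicate 2 (0.0573) or VECTOR replicate 1 (0.0649). Its paralog Gorasp2, which encodes GRASP55, read 11.92, 11.93 and 12.03 in AC9, against 11.72, 11.74 and 11.91 in VECTOR. It was higher on every AC9 array, at a log2 change of 0.17 that missed the threshold (SE 0.10, adjusted p 0.277). The change of Gorasp1 was below that of Gorasp2 by a difference of -0.74 (SE 0.16), without overlap and at the smallest p this exact permutation test allows, 0.1. Most of the 10 pairs reached that value, and no pair could pass after adjustment.

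Tgoln1, a trans-Golgi network membrane protein that cycles to the cell surface, read 10.56, 10.64 and 10.50 in AC9, against 11.01, 11.01 and 11.09 in VECTOR. The AC9 arrays were all lower, with a log2 change of -0.47 (SE 0.09, adjusted p 0.00666). Golga2 and Tgoln1 passed with each array left out in turn, at adjusted p up to 0.0405 and 0.0317.

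The other golgins and tethers did not pass the threshold. Golga4, Golgb1 (giantin) and Uso1 (p115) had log2 changes of 0.25, 0.21 and 0.22, and Golga5 of 0.03. Their difference from Golga2 was not tested. Of the mannosidases that trim N-glycans, Man2a1 read 9.41, 9.42 and 9.37 in AC9, against 8.89, 9.13 and 9.24 in VECTOR. The AC9 arrays were above the VECTOR arrays at a log2 change of 0.31 (SE 0.11, adjusted p 0.0839), which passed with dim genes left out (adjusted p 0.0371). Man1a had 0.24 (adjusted p 0.154).

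Golph3 and Myo18a link the Golgi membrane to actin. Golph3, which binds phosphatidylinositol 4-phosphate, read 10.46, 10.54 and 10.52 in AC9, against 10.18, 10.22 and 10.27 in VECTOR. The groups were separate and the spread small, yet the log2 change of 0.29 (SE 0.09) just missed the threshold at an adjusted p of 0.0522. Myo18a, its myosin partner, had a log2 change of 0.03 (adjusted p 0.908).

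Mmd, also called PAQR11, is a Golgi membrane scaffold. Its readings were 6.08, 6.13 and 6.24 in AC9, against 6.07, 5.89 and 6.41 in VECTOR. The groups overlapped fully and the readings sat at the negative-control bound of 6.06, so this probe set gives little information on Mmd. Its log2 change was 0.03 with a 95% interval from -0.27 to 0.33.

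In the Arf cycle none of 4 genes passed by limma, with 1 at an unadjusted p under 0.05. With the trended prior described below Gbf1 and Arf1 passed. The gene at the unadjusted threshold was Gbf1, the exchange factor that loads Arf with GTP at the cis-Golgi. It read 10.53, 10.60 and 10.65 in AC9, against 10.26, 10.30 and 10.37 in VECTOR. The AC9 arrays were higher without overlap, with a log2 change of 0.28 (SE 0.09, adjusted p 0.0570). Arf1, the GTPase that recruits COPI, had -0.20 (adjusted p 0.198), Arf4 had 0.04, and Arfgap1, which ends the Arf cycle by GTP hydrolysis, had -0.10. The change of Arf1 was below that of Arf4 by a difference of -0.23 (SE 0.07), without overlap (exact permutation p 0.1, the smallest possible, which most of the 10 pairs reached).

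Neither of the Golgi SNAREs, which drive fusion of vesicles with Golgi membranes, passed by limma, and neither had an unadjusted p under 0.05, although Gosr1 passed with the trended prior described below. Gosr1 and Gosr2 had log2 changes of 0.21 (adjusted p 0.168) and 0.03 (0.905). In Gosr1 the 3 AC9 arrays all read 10.09, above VECTOR readings of 9.92, 9.76 and 9.96.

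Counting separation alone, 20 of 36 members (55.6%) had groups that did not overlap, 11 higher and 9 lower in AC9. Over all genes 35.1% did not overlap, and 52.1% of genes above the negative-control bound, which is close to the members' share. The count of calls depended on how the variance was modelled. With an intensity-trended robust prior, 13 members (36.1%) passed, 7 higher and 6 lower, where 24% of all genes did. The 7 higher were Gbf1, Golph3, Gorasp2, Gosr1, Man2a1, Sec24a and Sec24d, and Arf1 joined the 5 lower genes. With dim genes left out of the fit, 10 members (27.8%) passed, 4 higher and 6 lower, where 36.8% of genes did. Gbf1, Golph3, Man2a1 and Sec24c joined the 6 genes. With arrays centred on their medians, 7 (19.4%) passed, 3 higher and 4 lower, where 18% of all genes did, Golph3 and Gbf1 joining Sec24d. For the trended prior and the centred arrays, no share was taken over genes above the negative-control bound, where all members lay.

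Among properties that the list did not use, 2 were set against the change after the values had been seen: promoter GC content and the annotated genomic span of the gene in RefSeq, introns included. Promoter GC content had a Spearman rank correlation of 0.126 with the change over 33 members. The span ran with the change at a rank correlation of 0.752 over the 36 members. All 5 lower members spanned at most 25.8 kb (Tgoln1 8.58, Cope 10.2, Gorasp1 11.9, Golga2 19.6 and Copg1 25.8), whereas Sec24d spanned 101 kb. Man2a1, Gbf1 and Man1a, at 154, 134 and 172 kb, had positive changes. Tmed2, at 9.71 kb with a change of 0.14, and Myo18a, at 103 kb with 0.03, did not follow the trend.

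Split at 22.3 kb, the median span of genes above the bound, 12 members were shorter and 24 longer. Of the shorter, 4 fell and 0 rose, with 3 positive changes and a median log2 change of -0.15. Of the longer, 1 rose and 1 fell, with 20 positive changes and a median of 0.14. The same direction appeared over the array, at a rank correlation of 0.194 over 10858 genes above the bound, where the median change was -0.06 in shorter genes and 0.06 in longer ones. Of the 5428 shorter genes 493 rose and 1021 fell, with 2236 positive changes. Of the 5430 longer genes 950 rose and 648 fell, with 3126 positive changes. In the other Golgi and traffic lists described next, the correlation was 0.257 over 153 genes.

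Leaving out each array gave 0.631 to 0.799 for the members and 0.174 to 0.220 for the array, and the 30 members that did not pass gave 0.666. These points share the same 6 arrays and include paralogs, and genes are not independent replicates. Background probe sets also moved with the groups: 19 of 23 were lower in AC9 without overlap, with a median difference of -0.06 and an extreme of -0.50 on the log2 scale. The 90th percentile of the negative controls lay the other way, at 6.076 to 6.112 in AC9 and 5.997 to 6.066 in VECTOR, higher on every AC9 array. The part of these background shifts, or of RNA quality, in the falls of the 5 members and in the relation to span was not tested.

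**Figure D3:**
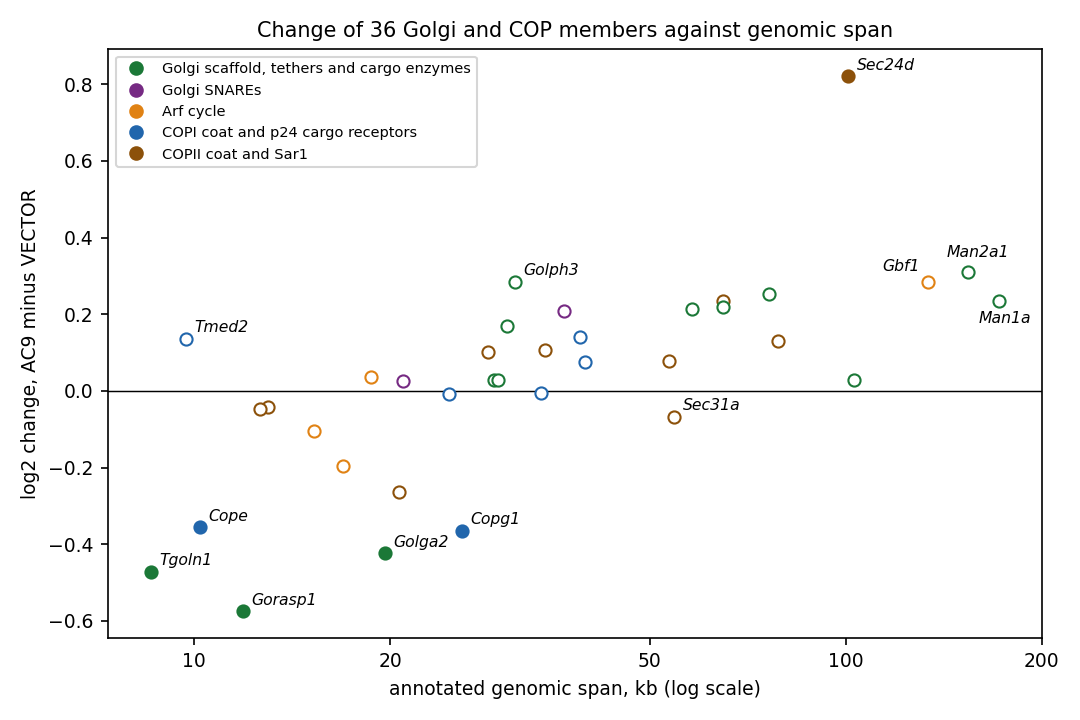
Log2 change, AC9 minus VECTOR, against annotated genomic span in kb on a log axis for the 36 members, coloured by role; filled points passed an adjusted p of 0.05. The 5 lower called genes lie at 25.8 kb or less, and Sec24d, the higher one, at 101 kb.

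The wider Golgi and traffic machinery was read from 10 further lists with 159 measured genes. Of these, 41 (25.8%) passed, 12 higher and 29 lower in AC9, with a median log2 change of -0.04. That share lies between the 17.6% of all genes and the 28.7% of genes above the bound. By list the share called ran from 9.09% to 50%, and no list was tested as a set. Among the other COPI subunits and Arf GAPs, 2 of 6 fell and 0 rose: the zeta subunit Copz2 by -0.58 and Arfgap3 by -0.40 on the log2 scale. Among other COPII and exit site factors, 1 of 11 rose, Sec16a, the scaffold of endoplasmic reticulum exit sites, by 0.51.

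Of 22 cargo receptors and p24 proteins, 2 rose and 3 fell. The p24 proteins Tmed4 and Tmed3 changed by -0.55 and -0.55, while Bcap29 and Ergic2, membrane proteins of the early secretory route, rose by 0.52 and 0.51. The TRAPP and COG tethering complexes had 6 lower and 1 higher of 21 (33.3% called, where 28.7% of genes above the bound were). Trappc1, a core TRAPP subunit, changed by -0.83 (adjusted p 0.00134), the COG subunit Cog6 by -0.51 and Trappc6a by -0.49, and Trappc13 rose by 0.47. Among 19 other golgins and matrix proteins, 2 rose and 1 fell. Golph3l, the paralog of Golph3, changed by -0.63 (adjusted p 0.00234), Arhgap21 rose by 0.59 and the trans-Golgi golgin Gcc2 by 0.41.

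Of 19 other SNAREs and their regulators, 2 rose and 5 fell. Scfd2 changed by -0.55, Sec22c by -0.46 and Use1 by -0.44, and Bnip1 rose by 0.41. Of 15 other Arf and Arl genes and exchange factors, 1 rose and 3 fell. The trans-Golgi exchange factor Arfgef1 rose by 0.51, and Arl2, Arf5 and Cyth2 changed by -0.47, -0.44 and -0.30. Of 17 trans-Golgi adaptor and clathrin genes, 1 rose and 3 fell: the clathrin heavy chain Cltc rose by 0.44, while the light chain Cltb changed by -0.54 and the adaptor subunits Ap1s1 and Ap1m1 by -0.40 and -0.40.

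Among 17 other glycan processing and Golgi enzymes, 2 fell and 0 rose, the sulfotransferase Tpst1 by -0.89 and the galactosyltransferase B4galt1 by -0.53. Of 12 regulators from the CREB3 and TFE families and the endoplasmic reticulum stress response, 2 rose and 4 fell. Atf6, a stress sensor of the endoplasmic reticulum, and Xbp1, a transcription factor of the unfolded protein response, rose by 0.73 (adjusted p 0.00131) and 0.57, and Creb3l1, a factor that drives secretory genes in bone, changed by -0.57. Creb3l4 passed but lay below the negative-control bound in both groups, so no size is given.

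Of the 32 genes named from these lists, 17 passed whichever array was left out. Cyth2 passed in none of the 6 fits (adjusted p 0.0731 to 0.147). Without AC9 replicate 1, B4galt1, Ap1m1, Bcap29, Gcc2, Trappc6a, Ap1s1, Trappc13, Bnip1, Ergic2, Sec16a and Sec22c missed the threshold. Without AC9 replicate 2, Arf5, Arfgap3, Gcc2, Bnip1, Ergic2, Sec16a and Sec22c missed it, and without AC9 replicate 3, Cltc, Ap1m1, Ap1s1, Trappc13, Bnip1, Ergic2 and Sec22c. Without VECTOR replicate 1 the losses were Trappc6a, Ap1s1, Bnip1 and Sec16a. Without VECTOR replicate 2 they were Bcap29, Trappc6a, Ap1s1, Trappc13, Bnip1, Ergic2, Sec16a and Sec22c, and without VECTOR replicate 3 Trappc13, Ergic2, Sec16a and Sec22c. The direction of all 32 stayed the same in these fits.

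**Figure D4:**
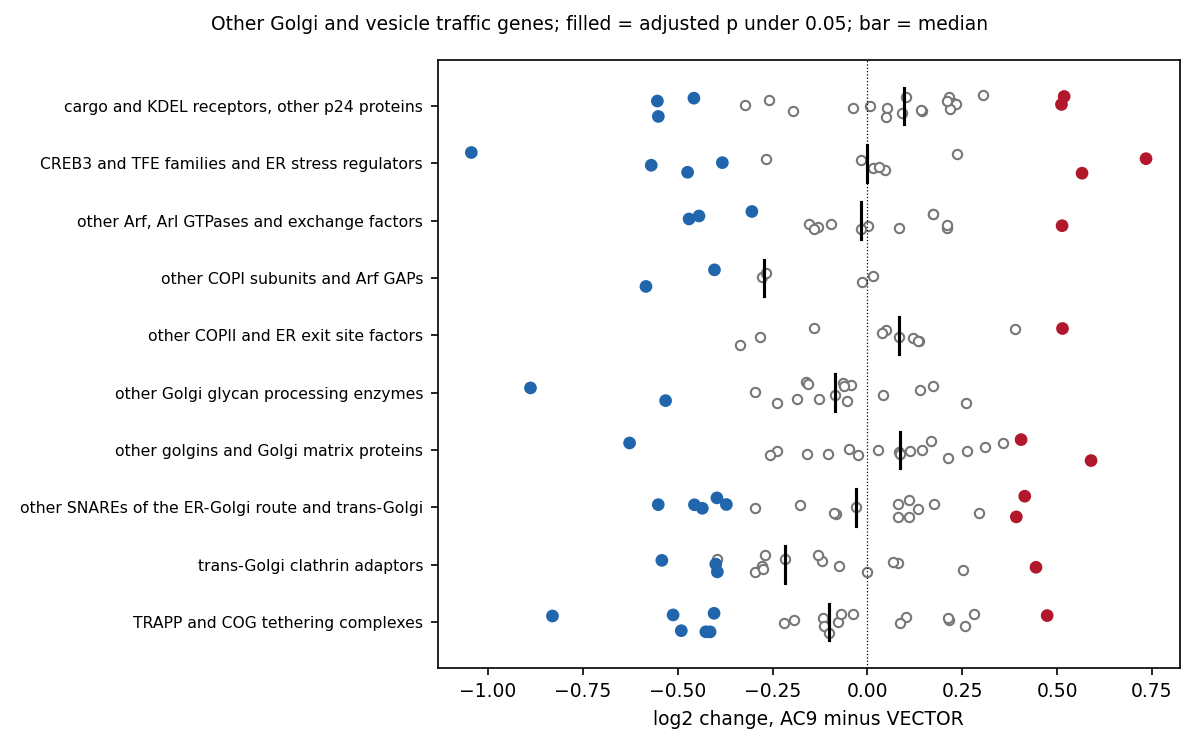
Log2 change, AC9 minus VECTOR, of each gene in the 10 further Golgi and traffic lists (points, spread vertically at random for visibility); filled points passed an adjusted p of 0.05, red higher and blue lower in AC9, and black bars are list medians. Calls fall on both sides of 0, 12 higher and 29 lower, and the leftmost point, Creb3l4, lay below the negative-control bound in both groups.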

How the data were processed

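Transcript levels were measured in 393P cells with AC9 (n = 3) or empty vector (n = 3) on 6 Affymetrix Clariom S arrays. The deposited table holds 1 log2 intensity for each probe set and array. It came from RMA, per the submitters' processing notes, which give neither software nor build here. RMA background-corrects, quantile-normalizes and summarises probes, so a shift common to most genes is removed. Of 22206 probe sets that are not controls, 19572 had exactly 1 gene symbol in the platform annotation and 2634 had none, leaving 19505 genes.

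The contrast AC9 minus VECTOR was fitted across all genes, dim ones included, in R 4.3.3 by limma 3.58.1 (lmFit, eBayes, two-sided). Benjamini-Hochberg adjustment covered all genes, with calls at 0.05. The fit was also run on simulated data with independent noise and spreads shuffled across genes. Such data cannot check how calls depend on the way the variance is modelled. P-values reflect only how far these samples spread, possibly for technical reasons, and the number of arrays limits the precision. Members and lists were chosen with earlier results of these data known. Named genes are all members past the threshold, the 5 others with the smallest p, and up to 4 called genes per further list; other members are given by value or range. Alternatives were a trended robust prior, repeated quantile normalization, median centring, dim genes left out (under the 40th percentile), probe-set means, a block for replicate number, array weights, single arrays left out and an adjusted p of 0.01. The background of genes above the negative-control bound, the genomic span and its alternatives, and the alternatives for paralog pairs were added after the data had been seen.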

Additional observations from a re-analysis of the deposited data

Results flagged for a closer look

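A signal appeared in data outside the comparisons of genes. Of 23 probe sets designed as background controls, 19 were lower in AC9 than in VECTOR without overlap, and 0 were higher, at a median difference of -0.06 on the log2 scale. Over the 5222 negative controls, the 90th percentile lay the other way, at 6.076 to 6.112 in AC9 and 5.997 to 6.066 in VECTOR. Among 2634 probe sets with no gene name here, 275 passed an adjusted p of 0.05 by limma, 149 higher and 126 lower in AC9. That is 10.4% of them, below the 17.6% of named genes. The cause of these signals was not tested.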

How the results depend on the processing

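The directions of the 6 called members, the 5 next members and the 32 further genes named held under every alternative that was run. With the trended robust prior the members called numbered 13 (7 higher), 36.1% of members where 24% of all genes passed. The further list genes then numbered 63 (22 higher). With dim genes left out the members numbered 10 (4 higher), 27.8% where 36.8% of genes passed, with 19 further genes higher. With centred arrays 3 members were higher. At an adjusted p of 0.01 there were 1670 genes (729 higher, 941 lower), 2 members (1 higher, 1 lower) and 17 further genes (4 higher, 13 lower). Leaving out 1 array gave 2174 to 3025 genes (968 to 1491 higher, 1206 to 1534 lower), 3 to 5 members (1 higher each time, 2 to 4 lower) and 24 to 35 further genes (5 to 11 higher, 19 to 24 lower). The lowest of these came without AC9 replicate 1, and the 3 members also without AC9 replicate 2. These fits have fewer samples, and the cause was not tested otherwise. The members' median stayed between 0.04 and 0.09. Over all genes, dim ones included, same-numbered arrays did not deviate together (correlations of 0.01, 0.08 and 0.01). The mean over the members did rise with replicate number, at 9.64, 9.66 and 9.71 in AC9 and 9.58, 9.63 and 9.69 in VECTOR. A link of replicate number to the members was not tested. The replicate block gave 3062 genes, 5 members and 39 further genes, and it changed no direction.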
